A study of Mus musculus with 8 samples.

Results

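Transcripts of the enzymes that build fatty acids, lengthen them and insert double bonds were measured by RNA seq in Th17 cells carrying either form of ROR-γt. The genes were chosen by name as Acly, Acaca, Acacb, Fasn, Elovl5, Elovl6, Scd1, Scd2, Fads1 and Fads2. All 10 of 10 were found among the 22829 genes listed, and all 10 had a mean of at least 10 normalized counts, as did 16982 genes in all. A normalized count is the number of reads counted on a gene divided by a size factor of its sample. CD4+ T cells of ROR-γt-/- mice, which lack the transcription factor that directs Th17 differentiation, were given ROR-γt back with a lentiviral vector and grown under Th17-inducing conditions. In 4 samples the vector carried WT-ROR-γt, and in 4 it carried K187R-ROR-γt, in which the lysine that accepts the small protein SUMO is replaced by arginine. Both groups therefore shared the deletion, the vector and the culture conditions, and the comparison asks what changes when this site of ROR-γt cannot be modified. The deposited design text speaks of WT and mutant mice rather than transduced cells. The age of the mice is not given in the sources used here, and neither is it said whether the samples came from separate animals or cultures, so p-values measure the spread between these samples, which may be technical.

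Cells make fatty acids in the cytosol from acetyl-CoA. Acly produces it from citrate, the acetyl-CoA carboxylases Acaca and Acacb turn it into malonyl-CoA, and Fasn joins these units into palmitate. Enzymes of the Elovl family lengthen the chain, Scd1 and Scd2 place the first double bond in a saturated chain, and Fads1 and Fads2 add further double bonds to polyunsaturated chains. Th17 cells are known to depend on this synthesis through Acaca, and much of the pathway is under the control of the transcription factors Srebf1 and Srebf2.

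Between 52456804 and 74676721 reads per sample fell on genes, and 3 reads, taken as the smallest detectable count, corresponded to 2.54 to 3.56 normalized counts. The Poisson intervals given below and this floor cover counting error only. The intervals of fold changes come from limma and rest on the spread between samples. Clustering of the samples over 16865 genes outside the gene lists used here gave 3 sets, each holding both groups: WT 1, WT 3 and K187R 1 in set 1, WT 2, K187R 2 and K187R 3 in set 2, and WT 4 and K187R 4 in set 3. These sets come from the values themselves and are not groups of the study. The T cell markers Cd3d, Cd3e, Cd3g, Cd4, Cd28 and Lck summed to between 136090 and 157015 normalized counts in every sample. The Th17 markers Ccr6, Il17a, Il17f, Il23r and Rora, led by Il17f, summed to 22563 to 42366 in WT and 32230 to 46702 in K187R. A count per gene does not show which form the vector carried.

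None of the enzymes changed past the threshold. By limma, 0 of the 10 had an adjusted p-value under 0.05, as did 0 (0%) of the 16982 genes tested, and edgeR and DESeq2, which called 0 and 27 genes in all, also called 0 of the 10. At an unadjusted p-value under 0.05 limma picked 1 of the 10, Acacb, against 746 (4.39%) of all genes tested. The groups did not overlap for 0 of the 10 enzymes, against 417 (2.46%) of all genes. The log2 fold change, K187R minus WT on the scale of log2(normalized count + 1), was positive for 4 enzymes and negative for 6. Its median was -0.0067 over the enzymes and -0.0062 over all genes tested. The enzymes also differed in how much they varied among the samples: Scd1 and Fads2 varied several-fold, and Acly, Elovl5 and Fads1 least.

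**Figure D1:**
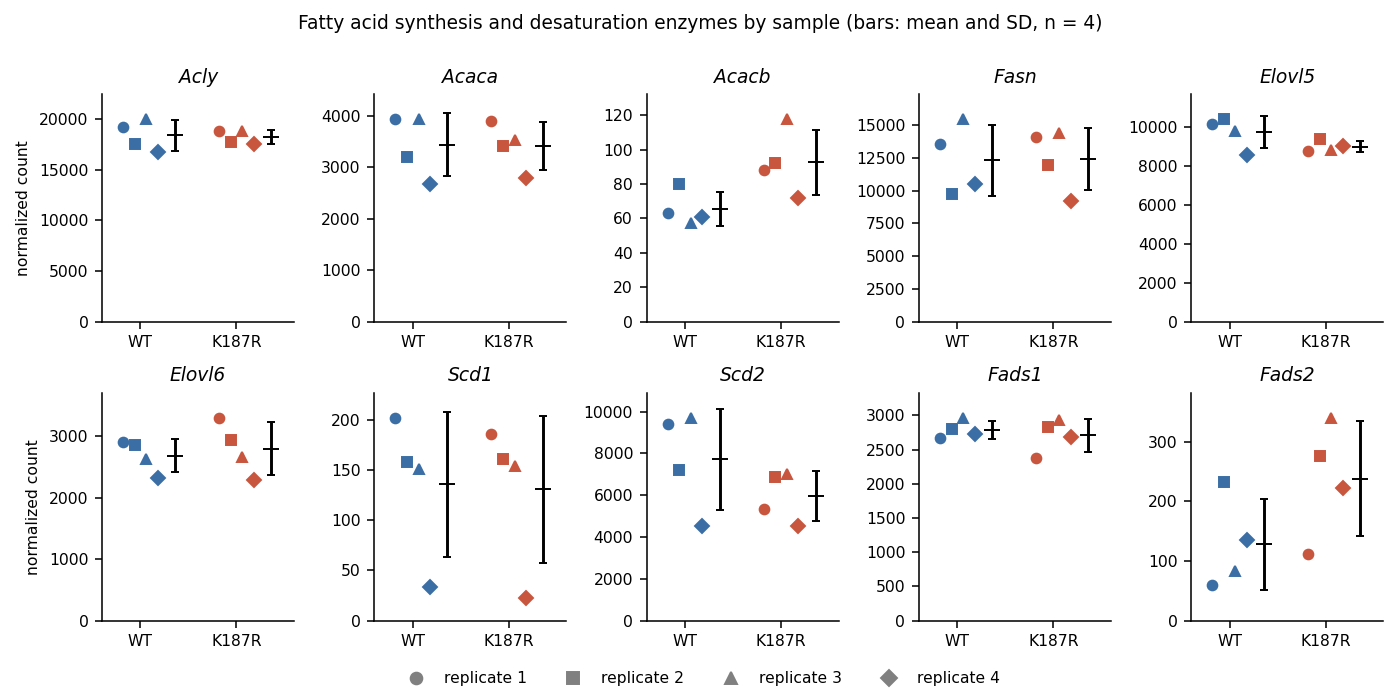
Normalized counts (vertical axes, each starting at 0) of the 10 enzymes in the 4 WT (blue) and 4 K187R (red) samples, with a symbol for each replicate number and black bars for the mean and SD (n = 4). Scd1 is lowest in the samples numbered 4 of both groups, at 33.1 and 22.2, and Acacb and Fads2 have their highest value in K187R 3.

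Acly (ENSMUSG00000020917, GRCm38 chromosome 11, 100476353 to 100528000, minus strand), ATP citrate lyase, splits cytosolic citrate into acetyl-CoA and oxaloacetate. It had 19254, 17519, 20057 and 16765 normalized counts in WT 1 to 4 and 18822, 17771, 18814 and 17566 in K187R 1 to 4. The groups overlapped, and WT 4 was the lowest sample. The means were 18399 ± 1519 in WT and 18243 ± 669 in K187R (SD, n = 4 each). The log2 fold change was -0.0093 (SE 0.075, 95% interval -0.18 to 0.16; exact two-sided permutation test, p = 0.83).

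Of the enzymes, 7 had a promoter in the RefSeq sequences used here, and none was matched for Scd1, Scd2 and Fads1. The promoters of Acaca and Acacb begin at bases 84195188 and 114165268, well inside genes that start at 84129672 and 114146535. They may therefore not be the main promoters of these 2 genes, and the counts below include them. Promoters of 300 bases, 250 before the start and 50 from it on, were searched on both strands. The letters TCACNCCAC, a form of the sterol regulatory element that Srebf1 and Srebf2 bind, occurred in 0 of the 7 and in 1.24% of the 32851 promoters of all genes. CCAAT, the CCAAT box, occurred in 4 of the 7 and in 37.4% of all, and GGGCGG, the GC box, in 2 of the 7 and in 35.7%. These are matches of letters in a short window and say nothing of what binds there. Because Acly had the highest level per length of the enzymes, the 250 bases before its start are shown (RefSeq, GRCm38.p6, chr11:100528001-100528250, minus strand), with the GC box matches in capitals. They begin at -117, -88, -76 and -27, counted from the start as 0.
Acly: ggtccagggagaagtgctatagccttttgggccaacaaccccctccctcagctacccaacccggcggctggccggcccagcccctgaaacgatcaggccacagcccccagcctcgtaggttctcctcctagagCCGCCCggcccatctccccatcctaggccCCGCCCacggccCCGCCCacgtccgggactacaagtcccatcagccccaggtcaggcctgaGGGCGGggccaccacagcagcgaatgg

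Acaca (ENSMUSG00000020532, chromosome 11, 84129672 to 84401651) encodes the cytosolic acetyl-CoA carboxylase, which commits acetyl-CoA to synthesis. It had 3947, 3206, 3948 and 2677 normalized counts in WT 1 to 4 and 3911, 3412, 3537 and 2801 in K187R 1 to 4. In both groups the sample numbered 4 was lowest. The log2 fold change was -0.0042 (SE 0.15, 95% interval -0.33 to 0.32; exact two-sided permutation test, p = 0.943). Of the 75-base windows of its transcripts, the length of the reads, 26.8% also occur in transcripts of other genes such as Gm5182, and how reads with several matches were counted is not stated, so its level is uncertain.

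Acacb (ENSMUSG00000042010, chromosome 5, 114146535 to 114250761) encodes the carboxylase at the outer face of mitochondria, whose malonyl-CoA restrains the entry of fatty acids for oxidation. It had 63.0, 79.8, 57.5 and 61.0 normalized counts in WT 1 to 4 and 88.1, 92.2, 118 and 72.0 in K187R 1 to 4. The samples K187R 1 to 3 were above every WT sample, and K187R 4 lay under WT 2. The means were 65.3 ± 9.9 and 92.6 ± 19.0 (SD, n = 4 each), and the log2 fold change was 0.49 (SE 0.20, 95% interval 0.027 to 0.94). In limma this had an unadjusted p of 0.0401 and an adjusted p of 0.921, and the exact two-sided permutation test gave p = 0.0571, where 0.0286 is the smallest that 4 against 4 samples allow. In all 3 sets the K187R samples exceeded the WT samples, by 0.54, 0.38 and 0.24 on the log2 scale in sets 1, 2 and 3. The sets were drawn from these same samples and are small. Set 3 has 1 sample a group, so its groups cannot overlap. How many of all genes tested do so was not counted, so this pattern may be common. An exact permutation test within sets gave p = 0.0556, the smallest that its 18 regroupings allow. These values rest on few reads, 53 to 83 in the WT samples and 78 to 112 in the K187R samples. The 95% Poisson interval of WT 2, from 63.6 to 98.9 normalized counts, contains the values of K187R 1, 2 and 4. The log2 fold change stayed between 0.36 and 0.60 in the 24 other settings tried, with an adjusted p of 0.341 or more from limma, edgeR or DESeq2.

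Fasn (ENSMUSG00000025153, chromosome 11, 120805846 to 120824547, minus strand), fatty acid synthase, assembles palmitate. It had 13570, 9732, 15498 and 10479 normalized counts in WT 1 to 4 and 14060, 11988, 14410 and 9220 in K187R 1 to 4. The samples of set 1, with K187R 3, were the highest, and the samples numbered 4 and WT 2 the lowest. The means were 12320.0 ± 2693 and 12419 ± 2386 (SD, n = 4 each), and the log2 fold change was 0.016 (SE 0.18, 95% interval -0.39 to 0.42; exact two-sided permutation test, p = 0.943). Within the sets the difference was -0.045, 0.43 and -0.18 on the log2 scale, so that the sets did not share a direction.

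**Figure D2:**
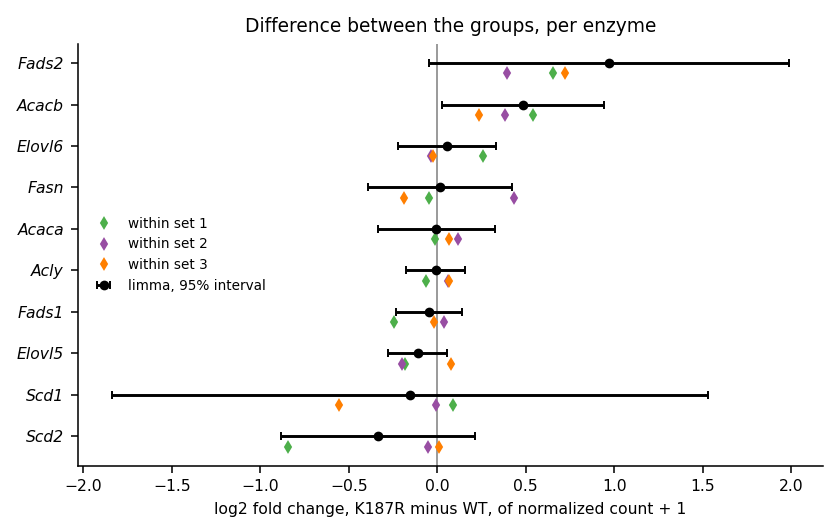
Log2 fold change, K187R minus WT, of each enzyme (black points, bars for the 95% interval from limma, n = 4 against 4), with the difference within each of the 3 sets of samples as coloured diamonds. All 3 diamonds lie above 0 for Fads2 and Acacb only, and the interval excludes 0 for Acacb only. Set 3 has 1 sample a group, and the share of all genes with all 3 differences above 0 was not counted.

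Among the elongases, Elovl6 (ENSMUSG00000041220, chromosome 3, 129532355 to 129638495) lengthens palmitate to stearate. It had 2904, 2866, 2634 and 2320 normalized counts in WT 1 to 4 and 3307, 2947, 2658 and 2285 in K187R 1 to 4. The sample numbered 4 was the lowest of both groups. The log2 fold change was 0.055 (SE 0.12, 95% interval -0.22 to 0.33; exact two-sided permutation test, p = 0.657). Elovl5 (ENSMUSG00000032349, chromosome 9, 77917364 to 77984519) lengthens polyunsaturated chains. It had 10144, 10436, 9808 and 8578 normalized counts in WT 1 to 4 and 8783, 9365, 8803 and 9053 in K187R 1 to 4. The samples WT 1, 2 and 3 were above every K187R sample, and WT 4 was below them all. The means were 9741 ± 817 and 9001 ± 272 (SD, n = 4 each), and the log2 fold change was -0.11 (SE 0.075, 95% interval -0.28 to 0.058; exact two-sided permutation test, p = 0.171). Leaving out 1 sample gave values from -0.17 without WT 4 (adjusted p = 0.34 from limma) to -0.076 without WT 2.

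The stearoyl-CoA desaturases place a double bond in palmitate and stearate, giving palmitoleate and oleate. Scd2 (ENSMUSG00000025203, chromosome 19, 44293674 to 44306864) was the main form in these cells. It had 9404, 7227, 9715 and 4510 normalized counts in WT 1 to 4 and 5338, 6886, 7035 and 4549 in K187R 1 to 4. WT 1, 2 and 3 were above every K187R sample, and WT 4 was the lowest of all 8. The means were 7714 ± 2406 and 5952 ± 1210 (SD, n = 4 each), and the log2 fold change was -0.33 (SE 0.24, 95% interval -0.88 to 0.21; exact two-sided permutation test, p = 0.286). The difference was -0.84 on the log2 scale in set 1, where K187R 1 was well below WT 1 and WT 3, and -0.054 and 0.012 in sets 2 and 3. Leaving out WT 4 moved the log2 fold change to -0.57 (adjusted p = 0.321 from limma), and leaving out WT 1, WT 3 or K187R 4 moved it to -0.22, -0.20 or -0.21. Of its 75-base windows, 1.78% also occur in transcripts of Scd1, Scd3 or Scd4.

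Scd1 (ENSMUSG00000037071, chromosome 19, 44394455 to 44407879, minus strand), the form best known from liver and fat, had 202, 158, 151 and 33.1 normalized counts in WT 1 to 4 and 185, 161, 154 and 22.2 in K187R 1 to 4. Both samples numbered 4 stood far below the other 6, which lay between 151 and 202. They held 38 reads in WT 4 and 25 in K187R 4, with 95% Poisson intervals of 23.4 to 45.5 and 14.4 to 32.8 normalized counts, well under the interval of every other sample. The group means were alike, 136 ± 72.2 and 130.5 ± 73.4 (SD, n = 4 each), but the log2 fold change of -0.16 was known only within -1.84 to 1.53 (SE 0.75; exact two-sided permutation test, p = 0.686). In sets 1 and 2 the groups differed by 0.087 and -0.0050 on the log2 scale, and in set 3, with 1 sample a group, by -0.55. Of its windows, 3.15% occur in transcripts of Scd2, Scd3, Scd4 or AC123853.3.

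The B cell markers Cd79a, Cd79b, Ms4a1 and Pax5 were low where Scd1 was low, in the samples numbered 4. Among the other samples the order differed, with Scd1 highest in WT 1 and the sum of these markers highest in K187R 1. Their sum was 816, 991, 778 and 238 normalized counts in WT 1 to 4 and 1309, 1047, 1006 and 303 in K187R 1 to 4, and all 4 of them were lowest in the samples numbered 4. The CD8 T cell markers Cd8a and Cd8b1 were highest in those samples, with sums of 1025 and 1141 against 387 to 556 elsewhere. The part of either cell type in the Scd1 values was not tested. In RNA from many cells, fewer cells of a type and less RNA per cell cannot be told apart.

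The 5 genes outside the lists whose pattern over the 8 samples was most like that of Scd1 were Ifi205, Fcmr, Ighv9-3, 3425401B19Rik and Iglc3. Likeness was measured as the root mean square difference of the centred log2 values, which was 0.30 for Ifi205, 0.31 for Fcmr, 0.35 for Ighv9-3, 0.37 for 3425401B19Rik and 0.38 for Iglc3. Iglc3 is an immunoglobulin light chain segment and Ighv9-3 a heavy chain segment, while Ifi205, the most alike, and 3425401B19Rik are not immunoglobulin genes. Ifi205, Ighv9-3 and 3425401B19Rik had 1.78 normalized counts each in K187R 4, where 3 reads correspond to 2.67. In WT 4 these genes had 2.61, 4.36 and 1.74, where 3 reads correspond to 2.61. Their likeness to Scd1 therefore rests in part on very few reads. Fcmr, a receptor for IgM, had 235, 197, 233 and 50.5 normalized counts in WT 1 to 4 and 366, 236, 279 and 52.5 in K187R 1 to 4. Since the genes were picked for this pattern, their low values in the samples numbered 4 follow from the choice.

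**Figure D3:**
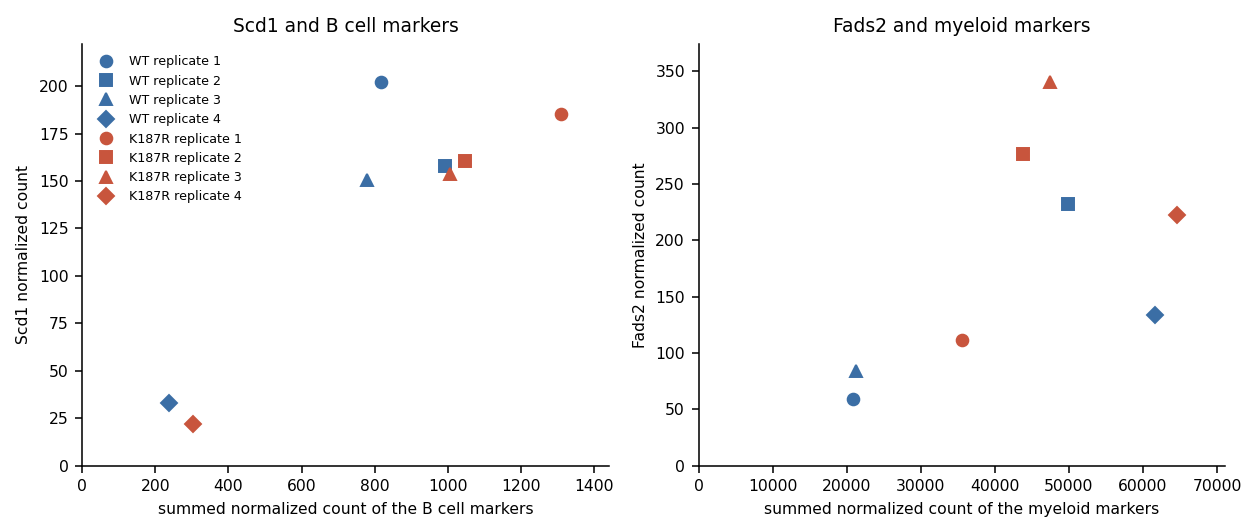
Normalized count of Scd1 against the summed normalized count of 4 B cell markers (left) and of Fads2 against that of 6 myeloid markers (right), 1 point per sample, WT in blue and K187R in red. The samples numbered 4 are lowest for Scd1 and for the B cell markers, and WT 1 and WT 3 are lowest for Fads2 and for the myeloid markers.

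The desaturases of polyunsaturated chains behaved differently from each other. Fads1 (ENSMUSG00000010663, chromosome 19, 10182888 to 10196877), which acts late in making arachidonate and eicosapentaenoate, varied little. It had 2665, 2807, 2968 and 2720 normalized counts in WT 1 to 4 and 2375, 2831, 2933 and 2689 in K187R 1 to 4, with K187R 1 lowest. The log2 fold change was -0.047 (SE 0.084, 95% interval -0.23 to 0.14; exact two-sided permutation test, p = 0.600).

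Fads2 (ENSMUSG00000024665, chromosome 19, 10062765 to 10101746, minus strand) carries out the first desaturation of the essential fatty acids linoleate and alpha-linolenate. It had 59.4, 233, 83.7 and 134 normalized counts in WT 1 to 4 and 112, 277, 340 and 222 in K187R 1 to 4. WT 1 and WT 3 were the lowest samples and K187R 2 and K187R 3 the highest, while K187R 1 lay within the WT range and WT 2 above K187R 1 and K187R 4. The means were 127 ± 76.7 and 238 ± 96.8 (SD, n = 4 each), and the log2 fold change was 0.97 (SE 0.45, 95% interval -0.048 to 1.99). The limma p was 0.0597 unadjusted and 0.921 adjusted, and the exact two-sided permutation test gave p = 0.171. In all 3 sets, again, the K187R samples exceeded the WT samples, by 0.66, 0.40 and 0.72 on the log2 scale (exact permutation test within sets, p = 0.111). As for Acacb, the share of all genes tested with this pattern was not counted. With the set as a factor the log2 fold change was 0.58 (adjusted p = 0.349 from limma) or 0.57 (adjusted p = 0.116 from DESeq2).

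Among the promoters searched, that of Fads2 held 1 GC box match. It is shown because Fads2 had the largest log2 fold change of the enzymes, a choice made after its values were seen. The 250 bases before its RefSeq start (GRCm38.p6, chr19:10101504-10101753, minus strand) have the match in capitals, beginning at -186.
Fads2: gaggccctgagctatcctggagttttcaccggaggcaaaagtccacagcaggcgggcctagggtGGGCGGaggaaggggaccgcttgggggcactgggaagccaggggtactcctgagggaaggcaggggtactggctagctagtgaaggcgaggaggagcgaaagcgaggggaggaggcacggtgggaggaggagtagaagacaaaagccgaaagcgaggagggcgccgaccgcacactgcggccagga

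Of the myeloid markers Adgre1, Cd14, Cd68, Csf1r, Itgam and Lyz2, 4 had their lowest values in WT 1 and WT 3, where Fads2 was lowest, and Cd68 and Cd14 did not. Cd14 had 558, 869, 676 and 448 normalized counts in WT 1 to 4 and 376, 947, 1058 and 407 in K187R 1 to 4, lowest in K187R 1 and the samples numbered 4. The sum of the 6 markers, most of it Lyz2, was 20894, 49938, 21275 and 61673 normalized counts in WT 1 to 4 and 35580, 43815, 47482 and 64664 in K187R 1 to 4. WT 1 and WT 3 had the lowest sums and K187R 1 the next, which is also the order of their Fads2 counts. The samples numbered 4 had the highest sums but not the highest Fads2. Adgre1, which marks macrophages, had 107, 648, 146 and 662 normalized counts in WT 1 to 4 and 296, 795, 863 and 679 in K187R 1 to 4. All 6 markers had a positive log2 fold change, with a median of 0.46, and 0 of the 6 had an unadjusted p-value under 0.05 in limma. Their part in the Fads2 and Acacb values was not tested. Of the adipocyte markers, Lep, Cidec and Plin1 are not listed. Adipoq, a hormone of fat cells, had 21.4, 67.3, 22.8 and 40.1 normalized counts in WT 1 to 4 and 57.6, 85.7, 77.9 and 52.5 in K187R 1 to 4, with the groups overlapping. WT 1 and WT 3 were lowest here too, and the K187R mean was the higher in all 3 sets. For Adipoq the log2 fold change was 0.96 (SE 0.37, unadjusted p = 0.0277 and adjusted p = 0.921 from limma), and its part in the values of Fads2 and Acacb was not tested either.

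**Figure D4:**
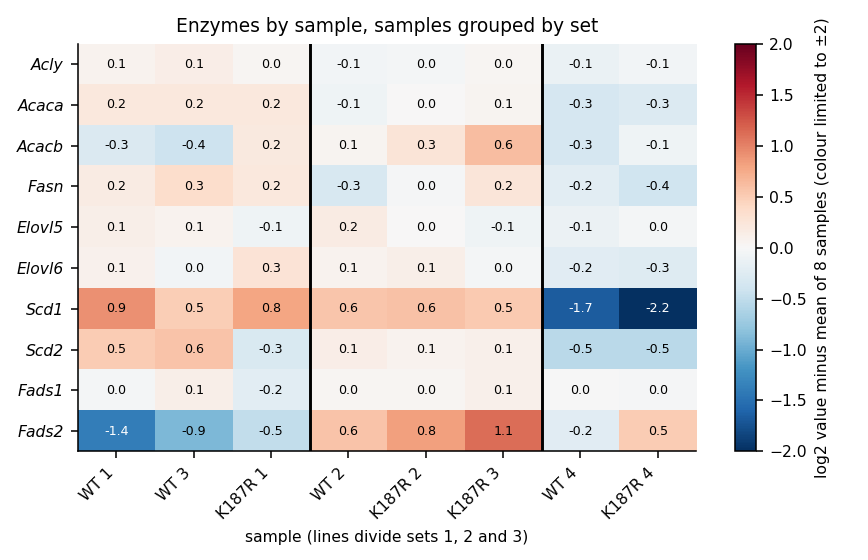
Log2 value of each enzyme in each sample minus its mean over the 8 samples (colour and number), with the samples ordered by set (black lines) and WT before K187R within a set. Scd1 is low in both samples of set 3, Fads2 is low in the WT samples of set 1 and high in set 2, and Acly, Elovl5 and Fads1 stay near 0.

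Over the 8 samples the SD of the log2 value was 1.21 for Scd1, 0.88 for Fads2, 0.43 for Scd2 and 0.35 for Acacb. The other 6 enzymes had an SD between 0.086 and 0.28, beside a median of 0.22 over all genes tested. The highest sample exceeded the lowest by 9.09 times for Scd1 and 5.73 times for Fads2, but by 1.2 times for Acly and 1.22 times for Elovl5.

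To compare enzymes with each other, the normalized count was divided by the exon length of the gene in kilobases. This length joins the exons of all annotated transcripts of a gene, 17074 bases for Acaca. It can exceed the length of the transcript that is made, which would lower the level per kilobase and shift the order and ratios. Acly stood highest in WT, with a level of 3485 ± 288 per kilobase, and Elovl5 next with 2766 ± 232 (SD, n = 4 each). Scd2 had 1412 ± 440 and Fasn 1125 ± 246, and Scd2 was above Fasn in only 4 of the 8 samples. Fads1 followed at 580 ± 27.5, Elovl6 at 417 ± 41.8 and Acaca at 202 ± 36.3. Fads1 was above Elovl6 in 7 of 8 samples. The lowest levels were those of Fads2 at 38.7 ± 23.3, Scd1 at 27.8 ± 14.8 and Acacb at 6.78 ± 1.03. Fads2 was above Scd1 in 5 of 8 samples, and Scd1 above Acacb in 7 of 8. For each of the remaining neighbours in this order the first was above the second in 8 of 8 samples.

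Within pairs of related enzymes the same enzyme had the higher level per kilobase in every sample. Some of these pairs act at different steps or on different chains, so the higher level does not make an enzyme the main form. Acaca exceeded Acacb per kilobase by 16.9 to 38.7 times, with a mean ratio of 30.4 ± 7.87 in WT and 21.2 ± 3.35 in K187R (SD, n = 4 each; exact two-sided permutation test, p = 0.0857). The ratio of Scd2 to Scd1 per kilobase lay between 25.8 and 57.8 in the samples numbered 1 to 3 and was 122 in WT 4 and 183 in K187R 4. Fads1 exceeded Fads2 by a mean of 19.3 ± 10.1 times in WT and 8.93 ± 3.86 times in K187R (exact two-sided permutation test, p = 0.143). For Elovl5 over Elovl6 the ratio was 6.64 ± 0.188 and 5.98 ± 0.981 (p = 0.229), and for Fasn over Acaca 5.58 ± 0.667 and 5.64 ± 0.514 (p = 0.886), by the same exact permutation test. Adjusted over the 5 ratios by the Benjamini-Hochberg method, the smallest of these permutation p-values was 0.357.

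The genes that control, feed and use the pathway were taken from lists, of which 0 genes passed an adjusted p-value of 0.05 in limma. Among 14 tested regulators, 0 had an unadjusted p-value under 0.05, 5 had a positive and 9 a negative log2 fold change, and the median was -0.021. Srebf1, which drives fatty acid genes, had 5183, 4690, 6285 and 7089 normalized counts in WT 1 to 4 and 5142, 4975, 6684 and 5605 in K187R 1 to 4 (log2 fold change -0.044, SE 0.14). Its relative Srebf2, better known for cholesterol synthesis, had a log2 fold change of 0.086 (SE 0.11). The values for the sterol-sensing Insig1 and Insig2, which hold Srebf proteins in the endoplasmic reticulum, were -0.12 (SE 0.10) and -0.18 (SE 0.084). Insig2 had 1642 to 1812 normalized counts in WT and 1360 to 1602 in K187R, and its groups did not overlap, as for 2.46% of all genes tested. For the oxysterol receptors Nr1h2 and Nr1h3 the log2 fold changes were -0.0017 (SE 0.14) and 0.25 (SE 0.31), and for Mlx, the partner of Mlxipl, -0.069 (SE 0.063). Mlxipl had a mean under 10 normalized counts, and Thrsp is not listed.

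All 6 genes that supply acetyl-CoA and NADPH had a positive log2 fold change, from 0.0082 to 0.54 with a median of 0.16, where 8224 of the 16982 genes tested had a positive one, and 0 of the 6 had an unadjusted p-value under 0.05. Acss2, which makes acetyl-CoA from acetate, had 1168, 1471, 1176 and 1836 normalized counts in WT 1 to 4 and 1681, 1645, 1699 and 1802 in K187R 1 to 4 (log2 fold change 0.30, SE 0.14, unadjusted p = 0.0637 from limma). WT 1 and WT 3 were low and WT 4 was the highest of all. The NADPH producers G6pdx, Pgd, Me1 and Idh1 had log2 fold changes of 0.20 (SE 0.11), 0.12 (SE 0.14), 0.54 (SE 0.52) and 0.11 (SE 0.20). WT 1 and WT 3 were the lowest WT samples for these 4 as well, and they also had the lowest sums of myeloid markers, 20894 and 21275 normalized counts, whose part in these values was not tested. For Slc25a1, the mitochondrial citrate carrier, the value was 0.0082 (SE 0.10).

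Of 14 other tested genes of elongation and desaturation, 7 had a positive and 7 a negative log2 fold change, and 0 had an unadjusted p-value under 0.05. Hacd4, Hacd2 and Fads6 had the smallest p-values, with log2 fold changes of 0.70 (SE 0.49), -0.12 (SE 0.089) and 0.23 (SE 0.18). Elovl2 and Elovl3 had means under 10 normalized counts, and Scd3 is not listed. In mitochondrial fatty acid synthesis 1 of 5 tested genes had an unadjusted p-value under 0.05 (4.39% of all genes tested), Ndufab1, the acyl carrier protein, at a log2 fold change of -0.17 (SE 0.064). It had 2382 to 2598 normalized counts in WT and 2164 to 2251 in K187R, without overlap, as for 2.46% of all genes tested. Oxsm and Mcat followed at 0.094 (SE 0.10) and 0.053 (SE 0.13).

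Among 13 genes of glycerolipid synthesis and storage, 1 had an unadjusted p-value under 0.05, beside the same 4.39% of all genes. Dgat1, which adds the last fatty acid to triglyceride, had 2360, 2155, 2666 and 2570 normalized counts in WT 1 to 4 and 1397, 1694, 1997 and 1821 in K187R 1 to 4. Every K187R sample lay below every WT sample, with a log2 fold change of -0.50 (SE 0.12, unadjusted p = 0.00207 and adjusted p = 0.921 from limma). Groups without overlap were seen for 2.46% of all genes tested, and Dgat1 was named for its small p-value. Lpin1 and Agpat4 had log2 fold changes of 0.13 (SE 0.073) and -0.23 (SE 0.14).

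Uptake and activation of fatty acids had 2 of 14 tested genes at an unadjusted p-value under 0.05, 1 in each direction, beside 4.39% of all genes tested. Acsl3, which couples long-chain fatty acids to CoA, had 3818, 2360, 3418 and 2016 normalized counts in WT 1 to 4 and 2009, 1629, 1450 and 1861 in K187R 1 to 4. The groups did not overlap, as for 2.46% of all genes tested, though WT 4 and K187R 1 nearly met. For Acsl3 the log2 fold change was -0.70 (SE 0.20, unadjusted p = 0.00646 from limma). Slc27a6, a fatty acid transporter, had 113, 137, 82.0 and 80.2 normalized counts in WT 1 to 4 and 164, 232, 221 and 135 in K187R 1 to 4. Its groups overlapped only in that WT 2 was just above K187R 4, and the log2 fold change was 0.87 (SE 0.24, unadjusted p = 0.00569 from limma). Fabp5, a carrier of fatty acids, had a log2 fold change of 0.13 (SE 0.072). Fatty acid oxidation had 0 of 14 tested genes at an unadjusted p-value under 0.05, and its smallest p-values were those of Slc25a20, Acadl and Acadvl, at log2 fold changes of -0.17 (SE 0.10), -0.12 (SE 0.086) and -0.11 (SE 0.082).

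**Figure D5:**
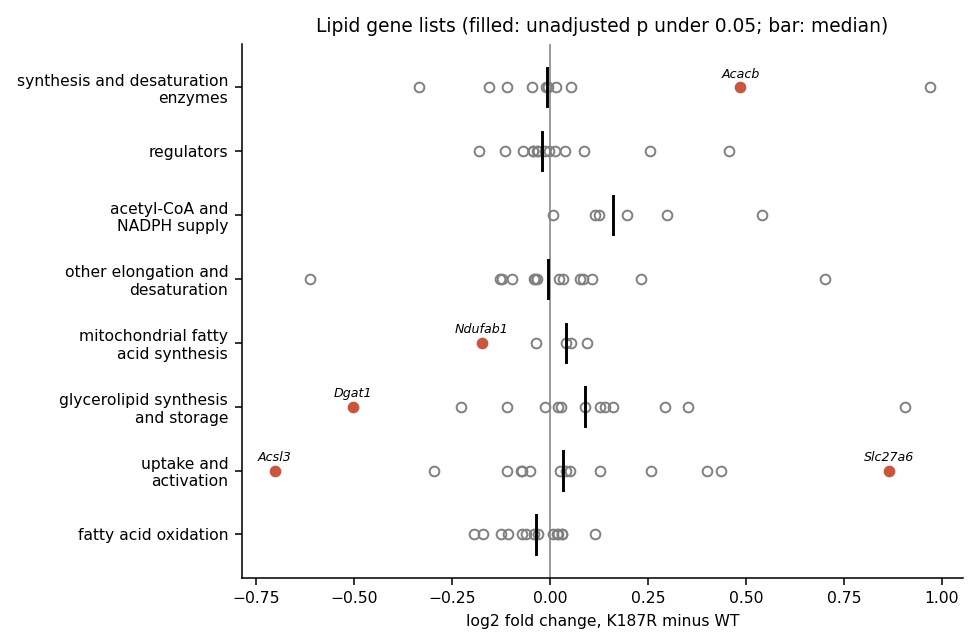
Log2 fold change, K187R minus WT, of each tested gene (points) in the synthesis and desaturation enzymes and 7 other lists of lipid genes, with black bars at the medians and filled points at an unadjusted p-value under 0.05 in limma. The filled points are Acacb and Slc27a6 to the right of 0 and Ndufab1, Dgat1 and Acsl3 to the left, and no point passed after adjustment.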

How the data were processed

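RNA was measured in 8 samples, whose groups were taken from the labels. The authors trimmed reads with Cutadapt, used HiSat2 for alignment to GRCm38 and featureCounts for counting on GENCODE M15 genes. Versions, strandedness and the treatment of reads with several matches are not given in the sources used here. The methods name a KAPA library kit and the labels a TruSeq kit. The deposited values are a signal, the reads of each gene divided by a size factor of the sample (0.842 to 1.18). All of them (100%) were whole multiples of 1 read within 0.01, so the reads were recovered.

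Differences were tested with limma (lmFit, eBayes with trend) on log2(normalized count + 1) for genes with a mean of at least 10, adjusted over all of them by the Benjamini-Hochberg method with a threshold of 0.05. Because the values are not counts, edgeR's quasi-likelihood test and DESeq2 on the recovered reads were alternatives, which called 0 and 27 genes. Single values were tested by exact two-sided permutation. Other settings were the pseudocount (0.5, 5), the filter, quantile normalization, no trend, a replicate block and each sample left out. After the data were seen, the sample set, the block in edgeR and DESeq2, and leaving out both samples numbered 4 were added. The fits by limma, edgeR and DESeq2 were also run on simulated counts. These had independent samples without sets, so they do not show how the methods behave on samples that fall into sets. The enzymes and lists were chosen with earlier results of these data known. From each other list the 3 genes with the smallest limma p were named, with Srebf1, Srebf2, Insig1, Nr1h2, Nr1h3 and the acetyl-CoA and NADPH genes. By the rule set beforehand, the promoter shown is that of the enzyme with the highest level per length when none holds TCACNCCAC. The promoter of Fads2 was added after its values were seen. Coordinates, exon lengths and shared windows are those of GENCODE M21, which held 22784 of the gene identifiers. Tests ran in R 4.3.3 (DESeq2 1.42.0, edgeR 4.0.16, limma 3.58.1), and tables and figures were made in Python 3.11.15 with pandas 2.3.3, scipy 1.17.1, numpy 2.4.6 and matplotlib 3.10.9. Some results are not reported here.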

Additional observations from a re-analysis of the deposited data

Results flagged for a closer look

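Scd1 stood apart in a single sample of each group. In WT the value of WT 4, 33.11 normalized counts, was separated from the nearest sample by 0.836 of the group's range on the log2 scale, and in K187R the value of K187R 4, 22.23 normalized counts, by 0.911, both past the 95% limit of Dixon's test for 4 samples. Of the 20 groups examined, 10 enzymes in 2 groups, 2 passed this limit, and chance passes about 5% of groups, or 1 of 20. The same samples had the lowest sums of B cell markers, 238 and 303 normalized counts, and the cause was not tested.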

How the results depend on the processing

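In the 24 other settings tried, 0 of the 10 enzymes passed an adjusted p-value of 0.05, and the lowest adjusted p was 0.0709, for Fads2 in DESeq2 with the replicate block. Acacb, Elovl5, Scd2 and Fads2 kept their direction in all 24. Quantile normalization turned Acly to 0.0066 and Acaca to 0.015. With the sample set, Acly was 0.018 in limma, 0.019 in DESeq2 and 0.019 in edgeR, and Acaca 0.055 in limma, 0.055 in DESeq2 and 0.056 in edgeR. Leaving out 1 sample gave log2 fold changes of -0.053 to 0.033 for Acly, -0.12 to 0.088 for Acaca, -0.089 to 0.15 for Fasn, -0.030 to 0.15 for Elovl6, -0.73 to 0.56 for Scd1 and -0.087 to 0.015 for Fads1; each of these ranges spans 0. The cause was not tested.

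Over all genes the count called, 0, became 27 in DESeq2, 0 to 4 with 1 sample left out (4 without WT 4, 0 otherwise), 1 with the sample set in limma and 1 in edgeR, 140 with it in DESeq2, and 4 in limma and 293 in DESeq2 without both samples numbered 4.

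The replicate numbers were not taken as pairing the samples. Deviations of same-numbered samples correlated at 0.592, 0.663, -0.092 and 0.63 for numbers 1 to 4. With the replicate block limma called 0 genes, edgeR 0 and DESeq2 175, and the log2 fold change of Acaca was 0.00062 in edgeR. Unadjusted p-values depended on this choice: limma picked 2046 genes under 0.05 with the block and 746 without it. With the block the unadjusted limma p was 0.00802 for Fads2 (adjusted 0.408) and 0.0378 for Scd2 (adjusted 0.409). Without it they were 0.0597 and 0.201, and Acacb had 0.0401 either way. Depth limits Scd1, Acacb and Fads2 most, with 25 to 323 reads per sample.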
